A study of Mus musculus with 6 samples.

Results

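Immunoglobulin heavy chain variable genes (Ighv genes) were examined in RNA-sequencing of 6 B-cell tumors from Eμ-Myc mice. Members were the genes that the deposited table gives the biotype IG_V_gene and a symbol starting with Ighv, and 3 of 38293 genes met this rule: Ighv14-3, Ighv13-2 and Ighv13-1. Ighv14-3 was above 0 in all 6 tumors at less than 1 RPKM, Ighv13-2 was above 0 in 2 tumors and reached 4.26 RPKM in 1 of them, and Ighv13-1 was listed at 0 throughout. RPKM is the number of reads per kilobase of a gene relative to sequencing depth. By the steps described below, a listed value was taken to add up the RPKM of a pair of runs. The other heavy chain V genes of the table were nearly all listed at 0 in every tumor, so these 3 genes are not the V gene repertoire of a tumor, and a large share for 1 of them cannot be read as a sign of clonality.

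The study compared tumors that carry a Myc transgene, driven by the heavy chain enhancer Eμ in cells of the B lineage, with and without the microRNA miR-146a. The 4 miR-146a-sufficient tumors (Myc tg; miR-146a+/+) came from C57BL6 males: replicates 1 and 2 from a neck node at 18 and 16 weeks of age, replicates 3 and 4 from the thymus at 10 weeks. The 2 miR-146a-deficient tumors (Myc tg; miR-146a-/-) came from the thymus of C57BL6 mice labelled female, at 11 and 10 weeks. Each tumor was made into a single-cell suspension and frozen in Trizol, and was sequenced as a pair of technical replicates that the table does not separate. Site is shared only in part between genotypes, and genotype and labelled sex cannot be told apart. The sex label of deficient replicate 2 went against its Y-linked Ddx3y level of 24.6 RPKM, against 0.130 RPKM in deficient replicate 1. Ddx3y was at 17.9 to 23.0 RPKM in the sufficient tumors. The X-linked Xist was listed at 1819 RPKM in deficient replicate 2 and at 1585 to 2203 RPKM in the sufficient tumors. Its value was 1.24e+06 RPKM in deficient replicate 1, the only tumor low in Ddx3y. The comparisons of the Ighv genes below are therefore also given without deficient replicate 2. They then set 1 deficient tumor, low in Ddx3y, against 4 sufficient tumors high in it. Genotype and sex by Ddx3y cannot be told apart there.

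A heavy chain is encoded by a V, a D and a J segment that are joined in the developing B cell, upstream of the constant gene Ighm. The RAG1 and RAG2 proteins cut at the segments, and the ends are joined by the non-homologous end joining machinery. Each B cell makes its own join, and the cells of a clone share it, which is why V gene RNA is commonly used to ask whether a tumor is clonal. Before joining, unrearranged V genes can also be transcribed from their own promoters. RNA counts per V gene do not separate such transcripts from rearranged ones.

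The symbols in the table did not all match a later annotation of the same assembly (GRCm38), GENCODE M21. By its gene ID, the row Ighv14-3 (ENSMUSG00000095642) kept its name and lies at chr12:114059845-114060321, minus strand, in 2 exons. The row Ighv13-2 (ENSMUSG00000087582) is Ighv6-7 in GENCODE M21, at chr12:114455626-114456083, minus strand, in 2 exons. The row Ighv13-1 (ENSMUSG00000076671) is Ighv13-2 in GENCODE M21, at chr12:114357759-114358218, minus strand. Of 28 rows named Ighv whose ID is in GENCODE M21, 4 carry another name there. Symbols below are those of the table. Since GENCODE M21 puts the row Ighv13-2 in V gene family 6, its values are not evidence on family 13.

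The ends of the 3 V segments are shown because a D segment is joined just after them. Each is the last 30 bases of the GENCODE M21 transcript, written 5′ to 3′ on the sense strand, with the final TGT in capitals, the codon of the conserved cysteine at the end of the third framework region.
Ighv14-3: gaggacactgccatctattacTGTgctaga
Ighv13-2 (Ighv6-7 in GENCODE M21): gaagacacgggcatctattacTGTacatgg
Ighv13-1 (Ighv13-2 in GENCODE M21): agacactgccacttattttTGTagtagaca

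Reads of V genes can be shared between close relatives, so each member was aligned to the other GENCODE M21 transcripts named Ighv. Its windows of 100 bases were searched in all GENCODE M21 transcripts. The nearest to Ighv14-3 was Ighv14-1, at 96.3% identity with 13 differences over 351 aligned bases. The nearest to the row Ighv13-2 was Ighv6-6, at 88.0% identity with 43 differences over 357 bases, and the nearest to the row Ighv13-1 was Ighv6-3, at 79.8%. All 300 windows of 100 bases in Ighv14-3, all 258 in the row Ighv13-2 and all 260 in the row Ighv13-1 matched no other gene exactly. A germline read of full length could thus be told apart from other annotated transcripts, and sequence outside them was not searched. A read with a sequencing error or a somatic mutation was not modelled. The stretches below are the 30-base windows with the most differences from the nearest relative, which are in capitals. Positions count from 1 at the 5′ end of the transcript, and run from 251 to 280 in Ighv14-3, from 203 to 232 in Ighv14-1, and from 186 to 215 in the other pair.
Ighv14-3: gaaggattgatcctgCgAatggtAatactA
Ighv14-1: gaaggattgatcctgAgGatggtGatactG
Ighv13-2 (Ighv6-7 in GENCODE M21): AggActGgagtgggtAgcACaaattaAaaG
Ighv6-6: GggGctTgagtgggtTgcTGaaattaGaaA

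The values of the remaining V genes set the limit on everything below. The table has 32 rows named Ighv, of which 28 have the biotype IG_LV_gene, 3 the biotype IG_V_gene and 1 (Ighv1-73) is protein coding. All 28 IG_LV_gene rows named Ighv were listed at 0 in all 6 tumors, among them Ighv6-6, Ighv6-3, Ighv12-3 and Ighv7-1. By gene ID, GENCODE M21 finds 108 heavy chain V genes in the table, and 3 of them were above 0 in any tumor. These 3 were Ighv14-3, Ighv13-2 and the protein coding row AC073590.1, which is Ighv6-4 in GENCODE M21 and held 0.146 RPKM in sufficient replicate 2 and 0.198 RPKM in sufficient replicate 4. Ighv1-73 held 0.156 RPKM in sufficient replicate 2 and was listed at 0 elsewhere.

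The share of rows at 0 differed between biotypes. Of 304 IG_LV_gene rows, heavy and light chain together, 0 were above 0 in any tumor. Of 44 T cell receptor V rows (TR_V_gene), 39 were above 0, or 88.6%, in tumors with little T cell RNA. All 12 IG_C_gene rows were above 0, against 0 of 25 IG_D_gene rows and 1 of 88 IG_J_gene rows. Between 222 and 595 bases, the range of the IG_LV_gene rows by GENCODE M21, 38 of 43 T cell receptor V rows and 272 of 657 protein coding rows were above 0, against 76.0% of protein coding rows of any length. Among classes of other short RNAs, 0 of 1433 snRNA rows and 0 of 1603 snoRNA rows were above 0. Why the IG_LV_gene rows are at 0 was not tested, and a tumor whose rearranged V gene is one of them would show no V gene RNA in this table.

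**Figure D1:**
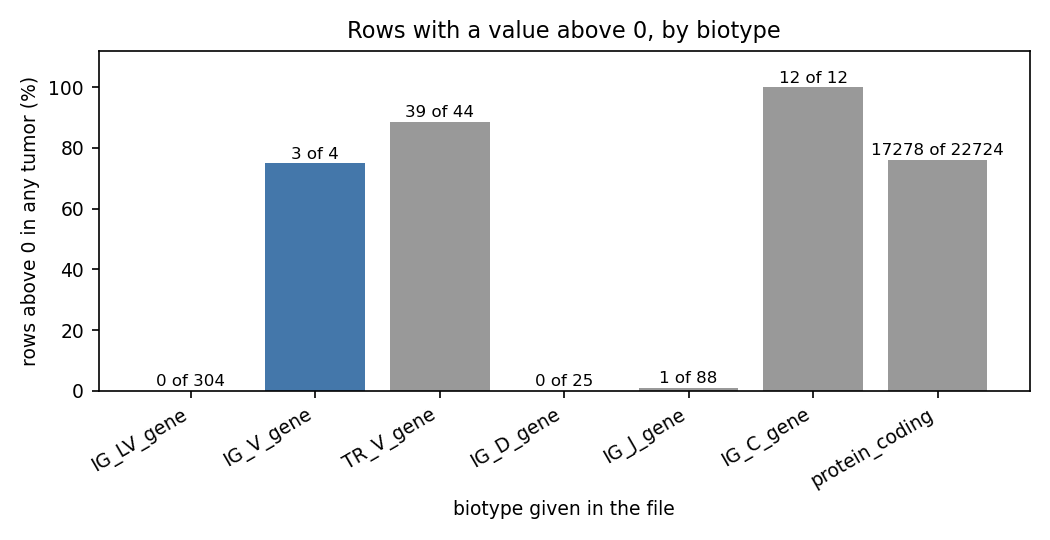
Share of rows above 0 RPKM in at least 1 of 6 tumors (vertical axis, percent) for 7 biotypes of the deposited table, with the number of rows above each bar; blue marks the biotype of the 3 members and their 1 light chain companion. The IG_LV_gene class, at 0 of 304 rows, has no bar, while T cell receptor V genes stand at 88.6%.

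Low RPKM values multiplied by gene length minus 99 bases fell on multiples of 2 step sizes in each tumor, as reads of 100 bases counted in a pair of runs would give. Between 33.8% and 43.5% of low values lay on such multiples within a relative tolerance of 2e-05, with lengths from GENCODE M21, which are not those of the authors for every gene. Taking each step as 1 read, a tumor had 51.3 to 139 M (mega) reads over both runs, with sufficient replicate 2 the deepest and sufficient replicate 1 the shallowest. The value of Ighv14-3 was a whole number of reads in all 6 tumors at 1 length, 398 bases, with an error of at most 1.5 ppm. The value of Ighv13-2 was a whole number of reads at 357 bases, its GENCODE M21 length. Read numbers below rest on these steps and are not given in the table, and intervals from them cover counting error only.

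**Figure D2:**
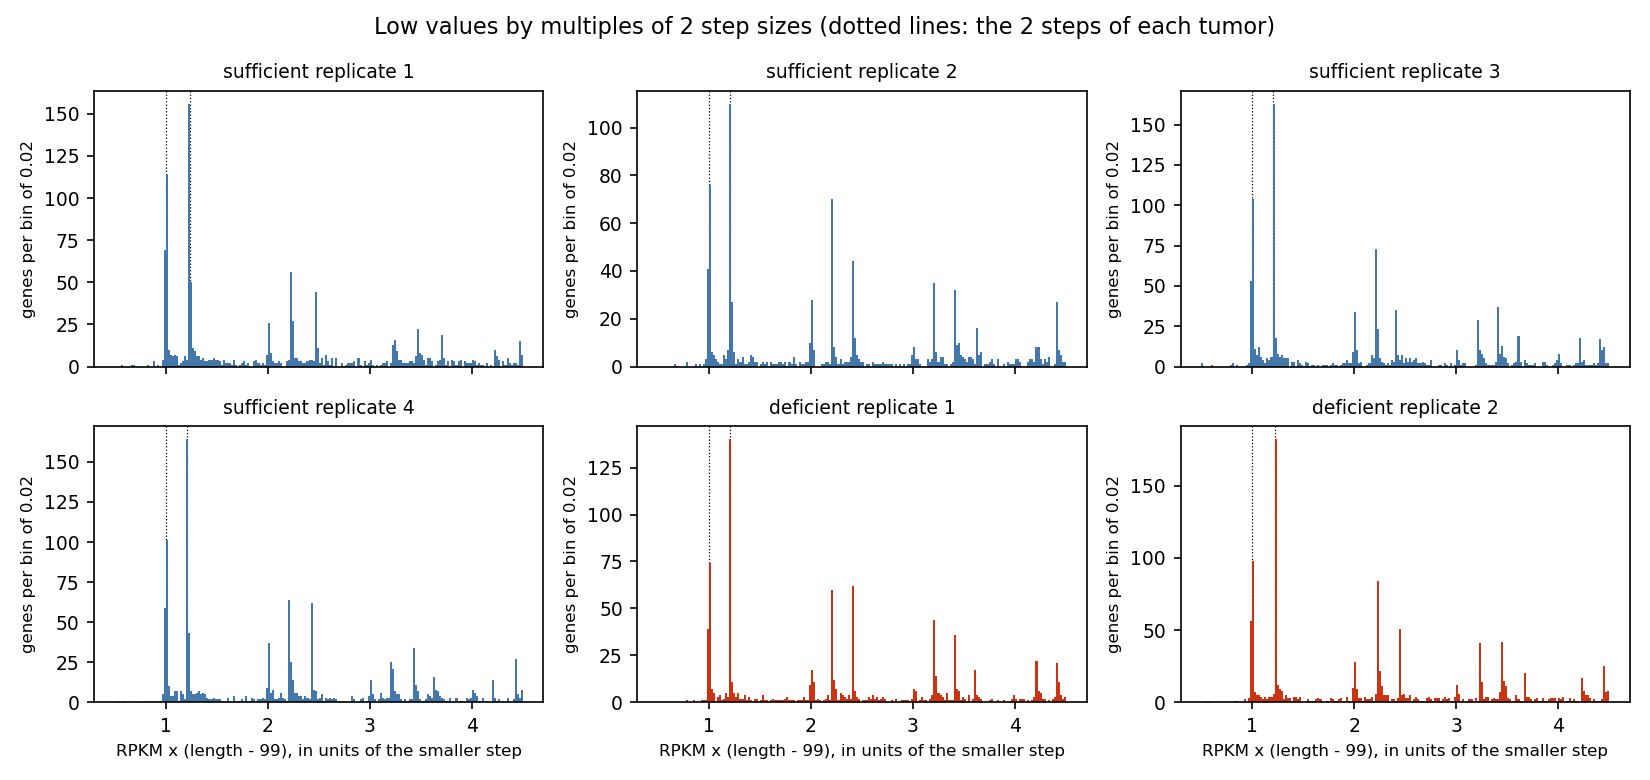
Number of genes (vertical axis, bins of 0.02) by RPKM multiplied by length minus 99 bases, in units of the smaller step of that tumor (horizontal axis), for 6 tumors; dotted lines mark the 2 steps. Peaks stand at both steps and at their sums and multiples in each tumor.

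Ighv14-3 was the one member above 0 in every tumor. It was at 0.4998, 0.791, 0.205 and 0.216 RPKM in sufficient replicates 1 to 4, or 4, 17, 2 and 2 reads. In the deficient tumors it was at 0.870 and 0.328 RPKM, or 15 and 4 reads. The highest value was in a deficient tumor and the next in a sufficient one, so the groups overlapped. The 95% Poisson intervals of all 6 tumors overlapped as well, from 0.479 to 1.32 RPKM in sufficient replicate 2 and from 0.478 to 1.41 RPKM in deficient replicate 1. In the 4 thymic tumors alone, both deficient tumors lay above both sufficient ones, on 2 reads in each of the latter, as did 32.1% of all genes tested. Means were 0.428 ± 0.278 RPKM (SD, n = 4) in sufficient and 0.599 ± 0.384 RPKM (SD, n = 2) in deficient tumors. Summed over libraries, Ighv14-3 took 8.15 reads per 100 M (95% Poisson interval 5.27 to 12.0) in sufficient and 9.46 (5.69 to 14.8) in deficient tumors.

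Ighv14-3 was the only member to pass the filter of at least 0.5 RPKM in at least 2 tumors, and it was not called. Its log2 fold change on the log2(RPKM + 1) scale, deficient against sufficient, was 0.16 (SE 0.26, adjusted p = 0.914 in limma), beside a median of 0.13 over all 12751 genes tested. After median-ratio scaling the median over all genes was -0.01 and the fold change of Ighv14-3 was 0.12. Of the members, 0 were called by limma, with 0 at an unadjusted p under 0.05, and no other tool was run across genes. Of all genes tested, 8 were called, or 0.0627%, and 3.62% had an unadjusted p under 0.05. The fold change was 0.41 without deficient replicate 2, again not called. Fewer tumor cells with V gene RNA and less of it per cell cannot be told apart in these bulk samples.

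Ighv13-2 was found in 1 tumor of each genotype. It was listed at 0 in sufficient replicates 1, 3 and 4, and stood at 0.377 RPKM, or 7 reads, in sufficient replicate 2. In the deficient group it stood at 4.26 RPKM in replicate 1, or 65 reads split 35 and 30 over the runs, and was listed at 0 in replicate 2. The 95% Poisson interval of deficient replicate 1 was 3.31 to 5.47 RPKM, and that of sufficient replicate 2 was 0.158 to 0.809 RPKM. Deficient replicate 1 thus stood apart from the other 5 tumors beyond counting error, and the groups overlapped. Relative to library depth it held 10.9 times as much as sufficient replicate 2 (exact 95% interval 5.02 to 28.3), which compares those libraries and not the genotypes. With 0 reads in deficient replicate 2, the upper 95% Poisson limit of that tumor was 0.350 RPKM. The level of deficient replicate 1 was 14.96 times the limit that 3 reads would set in deficient replicate 2, 0.285 RPKM. In the tumors listed at 0, the same limit ranged from 0.285 to 0.458 RPKM.

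The spread of Ighv13-2 within the deficient group was as wide as the range of the whole series. Means were 0.0942 ± 0.188 RPKM (SD, n = 4) and 2.13 ± 3.01 RPKM (SD, n = 2). It did not pass the filter of the test. With no filter its log2 fold change was 1.08 (SE 0.63, adjusted p = 0.905 in limma over 21369 genes), where 0.0281% of genes were called and 4.18% had an unadjusted p under 0.05. Without deficient replicate 2, the deficient group is the one tumor with the high value, and the gene then again had too few values for the filter.

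Ighv13-1 was listed at 0 in all 6 tumors. A level of up to 0.167 RPKM in the deepest library and up to 0.455 RPKM in the shallowest would give 3 reads. Summed over all 6 tumors, 0 of 508 M reads were assigned to it, with an upper 95% Poisson limit of 0.726 reads per 100 M.

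**Figure D3:**
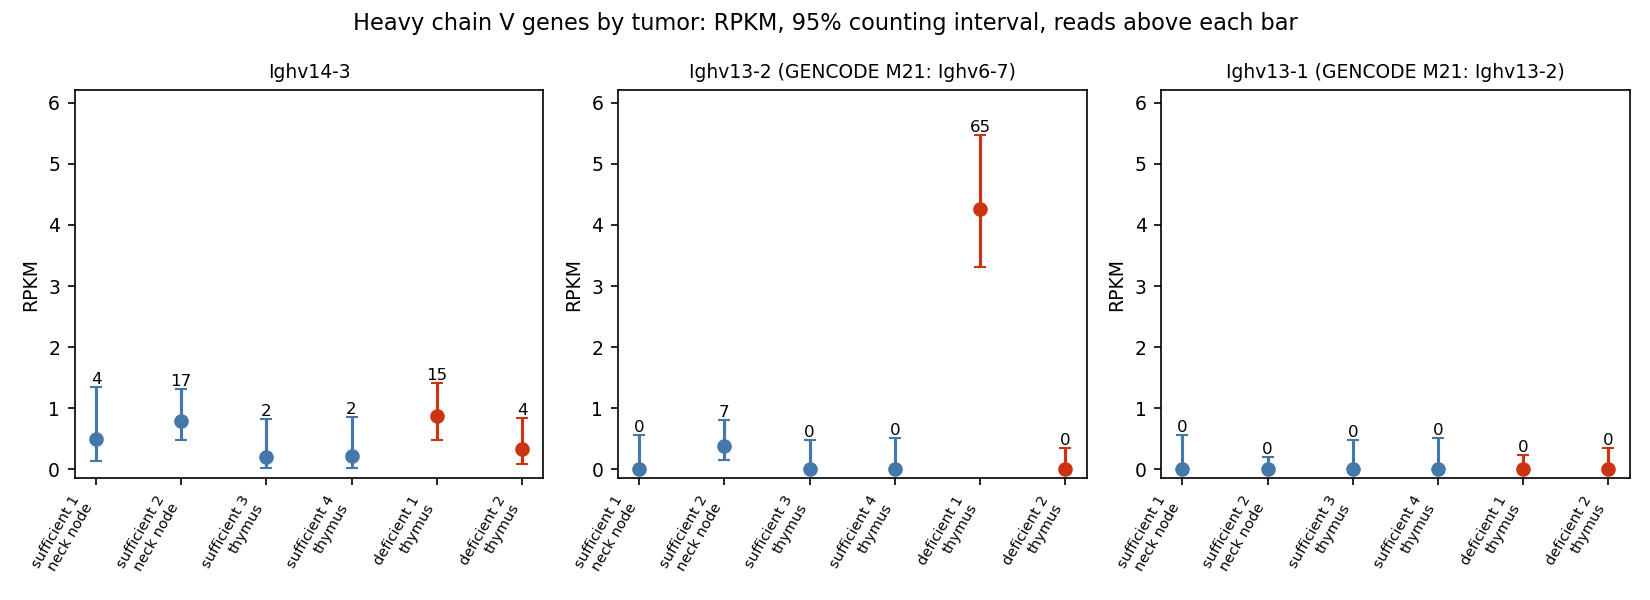
RPKM (vertical axis) of the 3 members in each tumor, sufficient in blue and deficient in red, with 95% Poisson counting intervals and the number of reads above each. Ighv13-2 in deficient replicate 1, at 4.26 RPKM and 65 reads, is the one value above 1 RPKM.

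The share of summed Ighv RPKM was computed per tumor as the rule asks, over these 3 genes only. The sums were 0.4998, 1.17, 0.205 and 0.216 RPKM in sufficient and 5.13 and 0.328 RPKM in deficient tumors. Ighv14-3 made up 100% of the sum in sufficient replicates 1, 3 and 4 and in deficient replicate 2, which rests on 4, 2, 2 and 4 reads. In sufficient replicate 2, Ighv14-3 held 67.7% and Ighv13-2 held 32.3%. In deficient replicate 1, Ighv13-2 held 83.0% and Ighv14-3 held 17.0%. By family in GENCODE M21, that is family 14 as the leading one in 5 tumors and family 6 in deficient replicate 1.

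A share of 100% says little at this depth. Counted in reads, 2 of 2 gives an exact 95% binomial (Clopper-Pearson) interval from 15.8% to 100%, and 4 of 4 gives 39.8% to 100%. In sufficient replicate 2, 17 of 24 reads, or 70.8%, were of Ighv14-3 (48.9% to 87.4%). In deficient replicate 1, 65 of 80 reads, or 81.3%, were of Ighv13-2 (70.97% to 89.1%). Of the 2 tumors with reads of both genes, the interval lay above an even split in deficient replicate 1 and included it in sufficient replicate 2. With the row AC073590.1 added by gene ID, the leading share of summed RPKM was 60.2% in sufficient replicate 2, 52.2% in sufficient replicate 4 and still 83.0% in deficient replicate 1, where that row was listed at 0.

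The sum was small beside the RNA of the heavy chain itself. Ighm, the constant gene of the mu chain, stood at 1062, 1235, 910 and 1653 RPKM in sufficient and 2272 and 2632 RPKM in deficient tumors. The summed Ighv RPKM was 0.0471%, 0.0946%, 0.0225% and 0.0131% of Ighm in sufficient tumors. It was 0.226% and 0.0124% in deficient tumors. Ighm was thus 443 to 8032 times the sum, and in deficient replicate 2 the highest Ighm level went with the lowest percentage. Which V genes were joined to that Ighm RNA cannot be read from the table.

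**Figure D4:**
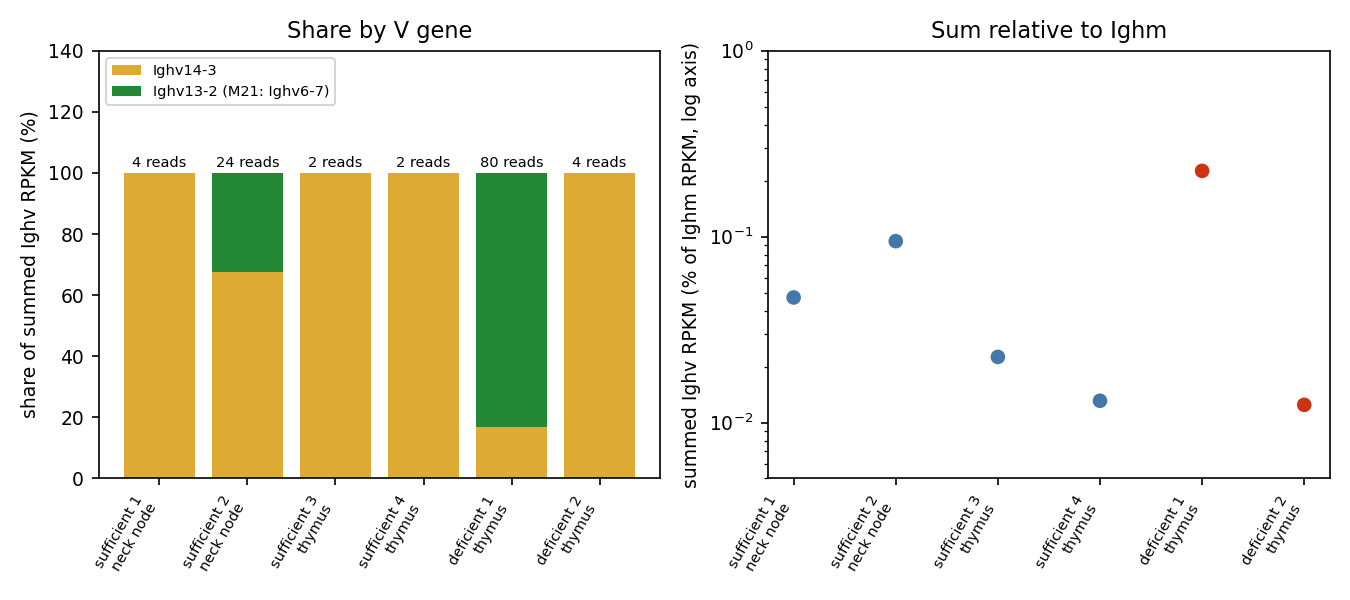
Left, share of the summed Ighv RPKM of each tumor held by Ighv14-3 and Ighv13-2 (vertical axis, percent) with the number of reads above each bar. Right, the summed Ighv RPKM as a percent of Ighm RPKM (log axis), sufficient in blue and deficient in red, from 0.0124% to 0.226%.

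The genotypes were compared in 5 measures over the members by exact two-sided permutation over 15 splits, where the smallest possible p is 0.133. Mean log2(summed RPKM + 1) was 0.56 ± 0.40 (SD, n = 4) in sufficient and 1.51 ± 1.56 (SD, n = 2) in deficient tumors, a difference of 0.95 (exact permutation p = 0.4). The mean share of the leading gene was 91.9% ± 16.1 and 91.5% ± 12.0, a difference of -0.413 points (exact permutation p = 1). The effective number of genes, the inverse Simpson index, was 1.19 ± 0.388 and 1.20 ± 0.277 (exact permutation p = 1). The number of genes at or above 0.5 RPKM was 0.25 ± 0.50 and 1 ± 1.41 (exact permutation p = 0.667). Sufficient replicate 1 counted as 0 in that measure, with Ighv14-3 just under the minimum at 0.4998 RPKM. The log2 sum outside the leading gene was 0.12 ± 0.23 and 0.45 ± 0.64 (exact permutation p = 0.667). After Benjamini-Hochberg adjustment over the 5 measures every exact permutation p was 1.

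The sign of the difference in both sums and in the number of genes rested on deficient replicate 1. Without it, the difference in the log2 sum was -0.15, and without deficient replicate 2 it was 2.05. Also without deficient replicate 2, the leading share differed by -8.89 points, the effective number by 0.198, the number of genes at or above 0.5 RPKM by 1.75 and the log2 sum outside the leading gene by 0.79. In the 4 thymic tumors the difference in the log2 sum of all members was 1.24 (exact permutation p = 0.333, the smallest that 6 splits allow). There the sums were 0.205 and 0.216 RPKM against 5.13 and 0.328 RPKM and did not overlap. Of all 12751 genes tested, 32.1% likewise had both deficient tumors above both sufficient ones among the thymic tumors.

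The light chain companion of the members, the only other IG_V_gene row, was Igkv19-93 (Igkv11-106 in GENCODE M21), a kappa chain V gene. It stood at 5.29, 5.69, 6.09 and 22.5 RPKM in sufficient tumors and at 2.80 and 1.88 RPKM in deficient ones. It was above the summed Ighv RPKM in 5 of 6 tumors, and below it in deficient replicate 1. Both deficient tumors lay below all sufficient ones, as did 2.09% of all genes tested, with a log2 fold change of -1.47 (SE 0.52, limma adjusted p = 0.893), which was not called.

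Among the heavy chain constant genes, 6 of 7 matched rows were tested and 0 were called, with 2 at an unadjusted p under 0.05. The median log2 fold change of the 6 was 0.24, beside 0.13 over all genes. Of all genes, 0.0627% were called and 3.62% had an unadjusted p under 0.05. Ighm had a log2 fold change of 1.04 (SE 0.32, limma adjusted p = 0.893). Ighg1, the IgG1 constant gene, was at 0.213, 0.188, 0 and 0.442 RPKM in sufficient and 2.81 and 5.99 RPKM in deficient tumors. The groups did not overlap, with a log2 fold change of 2.10 (SE 0.30, limma adjusted p = 0.101). Ighm and Ighe, the IgE constant gene, did not overlap either, with Ighe at 0, 0, 0 and 0.0258 RPKM in sufficient and 0.0841 and 0.593 RPKM in deficient tumors. Of all genes tested, 9.15% did not overlap and were higher in deficient tumors. Ighe did not pass the filter of the test, so that share does not cover it, and most of its values were at or near 0. Ighg2b, Ighg2c, Ighg3 and Igha (listed as AC160982.1) overlapped between groups, and Igha was at 1.51 to 13.7 RPKM in sufficient and 1.88 and 6.11 RPKM in deficient tumors.

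The recombination list held 15 genes, all tested, with 0 called higher and 0 called lower, where 0.0549% of all genes were called higher in deficient tumors and 0.00784% lower. Of the 15 genes, 1 had an unadjusted p under 0.05, against 3.62% of all genes. Their median log2 fold change was -0.25 beside 0.13 over all genes. Rag1, a subunit of the recombinase, ranged from 0.640 to 55.1 RPKM in sufficient tumors and stood at 2.27 and 0.0813 RPKM in deficient ones (log2 fold change -2.27, SE 1.21, limma adjusted p = 0.893). Rag2, the other subunit, ranged from 0.219 to 9.33 RPKM against 1.52 and 0.00814 RPKM. Dntt, the polymerase that adds bases at the joins, was at 0.606, 0.287, 6.34 and 0.415 RPKM in sufficient replicates 1 to 4. It stood at 0.510 and 0.0129 RPKM in the deficient tumors, so the groups overlapped. Xrcc6, the Ku70 end joining protein, was the gene past the unadjusted threshold, at 37.7 to 49.4 RPKM in sufficient and 29.1 and 18.5 RPKM in deficient tumors (limma adjusted p = 0.893).

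The heavy chain locus regulators held 16 rows, of which 14 were tested and 0 were called in either direction. Over all genes 0.0627% were called and 3.62% had an unadjusted p under 0.05. The median log2 fold change of the list was 0.08, beside 0.13 over all genes, with 1 at an unadjusted p under 0.05, Il7r, the interleukin-7 receptor of B cell precursors. Pax5, a B lineage factor that acts on the contraction of the locus, ranged from 22.6 to 37.8 RPKM in sufficient tumors and stood at 34.2 and 24.1 RPKM in deficient ones. Ebf1 ranged from 9.17 to 14.98 RPKM against 15.5 and 3.67 RPKM, and a further row of the same name was listed at 0 throughout.

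Markers placed all 6 tumors in the B lineage. The summed RPKM of 9 B cell rows, with 1 row at 0 in every tumor, was 1329 to 2049 in sufficient tumors and 2299 and 1380 in deficient ones. The sum of 8 T cell genes was 19.9 to 66.1 RPKM against 14.9 and 19.2 RPKM, and that of 6 macrophage genes was 124 to 299 RPKM against 210 and 246 RPKM. Most of the macrophage sum was Lyz2, and of the other macrophage genes Cd68, C1qa and C1qb were higher in both deficient tumors than in any sufficient one, where 9.15% of all genes tested lay in that way. C1qa, a complement gene of macrophages, was at 4.71 to 15.1 RPKM in sufficient and at 22.9 and 27.7 RPKM in deficient tumors. The 7 B cell precursor genes summed to 14.0 to 106 RPKM against 8.63 and 2.94 RPKM, and 6 plasma cell genes to 375 to 504 RPKM against 456 and 180 RPKM. Most of the plasma cell sum was Mzb1, at 336 to 471 RPKM in sufficient and 405 and 145 RPKM in deficient tumors. Among tested genes of these lists, 0 were called, and 1 of 8 B cell, 1 of 6 precursor, 0 of 5 plasma cell, 1 of 8 T cell and 3 of 6 macrophage genes had an unadjusted p under 0.05, beside 0.0627% of all genes called and 3.62% at that unadjusted p. Their median log2 fold changes were 0.16, -1.02, -0.18, -0.61 and 0.87 in that order, beside 0.13 over all genes. Deficient replicate 1, the tumor with the high Ighv13-2 value, also had the highest level of the B cell surface gene Ms4a1, 361 RPKM against 31.1 to 164 RPKM in the other 5 tumors, a gene singled out after its values were seen. The part of cell composition in the V gene values was not tested.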

How the data were processed

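RNA of 6 tumors was sequenced as single-end reads of 100 bases. Per the submitters' processing notes, the authors used STAR 2.3.0 for alignment (GRCm38, mm10), HTSeq 0.5.4p3 for counting and DESeq 1.12.1 for testing. The deposited table gives 1 RPKM value per gene and tumor; counts, lengths and runs were not given in the sources used here.

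The log2(RPKM + 1) values entered limma 3.58.1 (trend) in R 4.3.3, for 12751 genes with at least 0.5 RPKM in at least 2 tumors, with Benjamini-Hochberg adjustment and a threshold of 0.05. The scripts were checked on simulated data. Single measures were compared by exact permutation in Python 3.11.15 with NumPy 2.4.6. Poisson and binomial intervals were computed in SciPy 1.17.1. Step sizes were found from low values (from 0.02 RPKM) with union exon lengths of GENCODE M21, and reads were solved from them; intervals are at 95%. Relatives were found with Biopython 1.88 among GENCODE M21 transcripts named Ighv. Depth was inferred at 51.3 to 139 M reads per tumor.

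Named genes are Ighv genes with at least 2 percent of the sum in a tumor, the light chain V gene, and the constant, recombination, regulator and marker lists; Ighv13-1, Ighv1-73, AC073590.1 and Ighv rows at 0 were named after their values were seen. Some genes under this rule are not reported here. Members and lists were chosen with earlier results of these data known. The p-values measure the spread between tumors, 1 per animal as far as the labels say. Alternatives changed the pseudocount, filter, scaling, site, tumors, block and Ighv rule.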

Additional observations from a re-analysis of the deposited data

Results flagged for a closer look

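In the 4 sufficient tumors, sufficient replicate 2 was far from the other 3 in 5 related measures, by its gap relative to the group's range. Its Ighv13-2 level was 0.377 RPKM where the other 3 are listed at 0. The remaining 4 measures follow from that value or from Ighv14-3: a leading share of 67.7%, an effective number of 1.78 genes, 1 gene at or above 0.5 RPKM, and a log2(RPKM + 1) outside the leading gene of 0.46. The gap rule has a nominal rate of 1 in 20 groups, which was not computed from these values. With the other 3 tumors tied in all 5 measures, any differing value would be flagged, so that rate does not apply here. The tie in the number of genes also rests on sufficient replicate 1, where Ighv14-3 at 0.4998 RPKM fell just under 0.5 RPKM. Sufficient replicate 2 was also the deepest library, at 139 M reads against 51.3 to 59.7 M, and the part of depth in these values was not tested. At the depth of the other 3 tumors, the limit that 3 reads set for Ighv13-2 was 0.393 to 0.458 RPKM, above the value of 0.377 RPKM.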

How the results depend on the processing

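The count of Ighv genes called by limma was 0 under all 14 alternatives, of which 13 tested at most 1 member, so it says little about stability. Over the 5 measures compared by permutation, exact p ranged from 0.333 to 1. Leaving out 1 tumor at a time gave -0.15 to 2.05 for the log2 sum, -8.89 to 8.07 points for the leading share, -0.194 to 0.198 for the effective number, -0.25 to 1.75 for the number of genes at or above 0.5 RPKM and -0.12 to 0.79 for the log2 sum outside the leading gene. The negative values of both sums and of the number of genes came without deficient replicate 1, where the leading share was 8.07 points and the effective number -0.194. Without sufficient replicate 1, 3 or 4, the leading share was 2.28 points and the effective number -0.0628. With rows named Ighv of any biotype, added after the data were seen, they were 1.58 points and -0.107, and with rows named Ighv by GENCODE M21 gene ID 13.4 points and -0.350, against -0.413 points and 0.00191. The leading share of sufficient replicate 2 became 100% with values under 0.5 RPKM left out, and that of sufficient replicate 4 became 52.2% by gene ID. For these reversals the cause was not tested beyond the rows or tumors that each alternative changes.

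With the replicate number as a block, the log2 sum differed by 0.66 (exact permutation p = 1) and 0 members were called, while the log2 fold change of Ighv14-3 turned to -0.057. Deviations of same-numbered tumors correlated at 0.0192 and 0.213 across genes, and no label pairs the tumors. Ighv pseudogene rows could not be added, since no Ighv row has that biotype. Leaving out values under 0.5 RPKM gave no share in 4 tumors and so no group difference.

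Depth limits most values: 5 of 6 tumors have at most 24 reads over the members. V genes of the IG_LV_gene class, all at 0, could not be set beside them.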
